A study of Mus musculus with 3 samples.

Results

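Cones dominated by M-opsin are cone photoreceptors whose transcripts of the middle-wavelength opsin gene Opn1mw equal or exceed those of the short-wavelength opsin gene Opn1sw. They were picked from single-cell RNA sequencing of mouse retina by opsin reads: a barcode counted as a cone with 2 or more reads in at least 4 of 7 cone genes (Arr3, Gnat2, Pde6h, Pde6c, Gngt2, Cnga3 and Cngb3) and few reads of Müller glia genes. A cone counted as M-opsin-dominated, here an M cone, with 5 or more Opn1mw reads and at least as many Opn1mw as Opn1sw reads. The rule found 1184 M cones among 2373 cones and 26696 barcodes, with 468, 246 and 470 of them in the treated, KO and WT libraries. Cones with 5 or more Opn1sw reads and more Opn1sw than Opn1mw reads are called S cones here, and there were 1106 of them (244, 423 and 439 in the same libraries).

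Retinas were taken at P26 from Tspan12 KO mice given F4L5.13, from Tspan12 KO mice and from WT mice, and each group has 1 library. Every sample carries the strain label Tspan12tm1.2Hjug, WT included, and neither the number of animals nor pooling is given. TSPAN12 helps the ligand Norrin signal through FZD4 and LRP5 in retinal endothelium, and F4L5.13 is an antibody that activates this receptor pair. Injections into the peritoneum began on P6 with 10 mg/kg, a dose repeated on P9 and P12, and went on with 4 mg/kg at intervals of 3 days. The suspensions of all groups went through bead depletion of photoreceptors (CD73) and dying cells (Annexin V).

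Most mouse cones can make both opsins. In the dorsal retina cones mainly carry M-opsin and in the ventral retina mainly S-opsin, with a smaller set of true S cones that never switch on Opn1mw. Thyroid hormone acting through its receptor TRβ (Thrb) promotes Opn1mw and holds back Opn1sw in mouse cones, with the retinoid X receptor γ (Rxrg) and orphan nuclear receptors among the other regulators. Both opsins feed the same cascade, in which transducin (Gnat2) activates the phosphodiesterase PDE6C and the cyclic nucleotide gated channel CNGA3/CNGB3 closes.

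The stretches of 250 bases upstream of the RefSeq start sites of both opsin genes are shown because reads of these genes set the classes. Opn1mw lies at chrX:74127216-74127465 on the plus strand and Opn1sw at chr6:29380514-29380763 on the minus strand (upstream windows, GRCm38.p6), and both are written 5′ to 3′ along the gene.
Opn1mw: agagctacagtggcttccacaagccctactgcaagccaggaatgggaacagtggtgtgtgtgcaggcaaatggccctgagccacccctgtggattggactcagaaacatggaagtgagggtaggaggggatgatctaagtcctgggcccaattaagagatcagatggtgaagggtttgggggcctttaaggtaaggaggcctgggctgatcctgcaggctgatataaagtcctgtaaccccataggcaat
Opn1sw: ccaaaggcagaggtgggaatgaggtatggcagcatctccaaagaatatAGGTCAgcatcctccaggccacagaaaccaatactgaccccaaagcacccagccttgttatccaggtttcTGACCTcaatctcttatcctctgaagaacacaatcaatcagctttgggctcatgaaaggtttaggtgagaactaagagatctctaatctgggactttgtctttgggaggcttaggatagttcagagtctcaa
Capitals mark the nuclear receptor motif AGGTCA on either strand. The Opn1sw window holds it at -202 to -197 on the gene's strand and at -132 to -127 on the other strand, and these letters are not in the Opn1mw window. Of 32851 mouse upstream windows of this length, 14.0% hold AGGTCA. The photoreceptor homeobox motif TAATCC was searched in the same way, is in neither window, and is in 6.25% of all windows.

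M cones had a median of 14737.5, 12296.5 and 12918 reads in the treated, KO and WT libraries, and their summed reads came to 8143920, 3567480 and 7344750, to which all CPM values are scaled. The cone markers Arr3, Gnat2 and Pde6c, parts of the rule, stood at 1140, 1938 and 878 CPM in treated M cones, at 1323, 1987 and 917 CPM in KO M cones and at 2029, 2436 and 959 CPM in WT M cones. Rod markers were also present: 30.1%, 26.8% and 20.2% of M cones had 3 or more reads in at least 4 of 8 rod genes, and 8.12%, 12.6% and 9.36% carried bipolar or amacrine markers, so the shares, the M and S comparison and the comparisons between libraries were also computed without the one or the other kind, and the comparison within M cones without the rod-marked barcodes. The libraries shared 15 to 31 barcode sequences per pair, and no barcode was an M cone in both libraries of a pair. In bipolar barcodes, which should not make opsins, 0.388%, 0.110% and 0.115% had 5 or more Opn1mw reads. Tspan12, the targeted gene, was too low in M cones to check the labels, at 0.368, 0.841 and 2.72 CPM, and stood at 15.8, 18.3 and 30.6 CPM in barcodes that are not cones. Whether the deposited values cover the deleted part of Tspan12 is not given. With 1 library a group, differences between groups below have no replicate and no test, and all intervals cover counting error only.

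M-opsin reads were abundant in nearly all M cones. The median M cone held 135, 102 and 142 Opn1mw reads in the treated, KO and WT libraries, in which Opn1mw came to 7769, 7143 and 9216 CPM. At the lower limit of the rule, 5, 1 and 1 M cones had exactly 5 Opn1mw reads, and 1, 0 and 0 cones stood just outside it at 4 reads. At the other limit, Opn1sw made up 40% to 50% of both opsins in 24, 10 and 29 M cones and 50% to 60% in 28, 17 and 29 S cones. As these values chose the cells, they are a description.

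**Figure D1:**
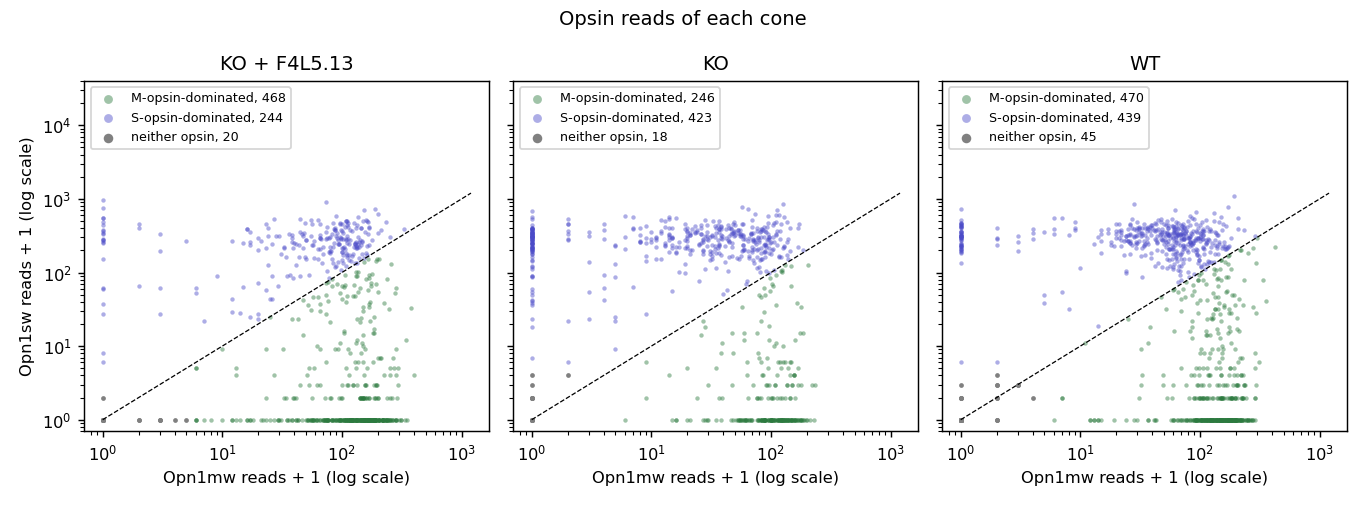
Opn1mw reads (x axis) and Opn1sw reads (y axis) of each cone, each plus 1, on log scales, with a panel for the treated, KO and WT libraries; the dashed line marks equal values. Most of the 468, 246 and 470 M cones lie along the bottom, with few or no Opn1sw reads, while most S cones also hold Opn1mw reads.

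The classes held different amounts of the other opsin, which is a description since opsin reads made them. No Opn1sw read was found in 62.2% of treated, 58.1% of KO and 52.3% of WT M cones. In bipolar barcodes, 7.58%, 16.2% and 17.8% had an Opn1sw read in the treated, KO and WT libraries. The part of RNA from other cells in the M cone shares was not tested. At another limit, 87.7% of treated, 74.0% of KO and 86.1% of WT S cones had 5 or more Opn1mw reads. The opsin reads per cone show this as a dense band of M cones at the bottom and a cloud of S cones at the upper right. M cones in which Opn1sw made up at least 10% of both opsins, called mixed here, numbered 79, 39 and 94, or 16.9%, 15.9% and 20.0% of M cones.

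The share of M cones differed between the 3 libraries. Among cones with either opsin, M cones made up 65.7% in the treated library (95% exact interval 62.1% to 69.2%), 36.8% in the KO library (33.1% to 40.6%) and 51.7% in the WT library (48.4% to 55.0%). The intervals did not overlap, but they cover the counting of cells within each library and not the spread between animals or preparations. Whether the groups differ was therefore not tested. The KO share was the lowest and the treated share the highest. The order was the same with each cone thinned to 3000 reads, at 65.5%, 36.6% and 51.1%. Requiring Opn1mw to reach 3 times Opn1sw lowered the shares to 58.1%, 33.6% and 46.0%. The suspensions were depleted of photoreceptors with beads, so these shares describe the cones that remained. Where in the retina each cone lay was not measured, so retinal region and group cannot be told apart.

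To find what else marks M cones, reads were summed over M cones and over S cones of each library and compared with edgeR's quasi-likelihood test with library as a block, so that the 3 libraries serve as replicates (n = 3 pairs). Of 14584 genes tested, 99 were higher in M cones (0.679%) and 83 were lower (0.569%) at a Benjamini-Hochberg adjusted p of 0.05. Of these 182, 179 differed the same way in all 3 libraries, and 3 (Opn1mw, Opn1sw and Arr3) belong to the rule and are not read as results. The transcription factor gene Nr2f2 and its neighbours rose in M cones, with the DNA repair gene Smug1 and the photoreceptor silencing gene Samd7. The ventral retina homeobox gene Vax2, the homeobox gene En2, the synaptic gene Syndig1l and genes beside Opn1sw fell.

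Nr2f2 encodes COUP-TFII, an orphan nuclear receptor found in the dorsal part of the developing mouse eye. It stood at 55.7, 51.3 and 53.5 CPM in M cones of the treated, KO and WT libraries, against 13.1, 4.21 and 10.4 CPM in S cones. Every M cone sum was above every S cone sum, with a log2 difference of 2.57 ± 0.21 (SE) and an edgeR adjusted p of 1.83e-06. Reads of Nr2f2 were found in 32.7%, 26% and 31.5% of M cones, against 6.97%, 3.07% and 4.56% of S cones.

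The genes around Nr2f2 moved with it. Nr2f2 lies on the minus strand of chromosome 7 at 70351944 to 70366735 (GRCm38, GENCODE), and within 250000 bases of it 6 genes were tested, Nr2f2 included. All 6 were higher in M cones. The others are gene models with no assigned function, noncoding in GENCODE, although RefSeq gives Gm44812 as protein-coding: B130024G19Rik, whose start overlaps the start of Nr2f2 on the opposite strand, Gm28258, Gm44532, Gm35842 and Gm44812, singled out after their values were seen. B130024G19Rik stood at 56.1, 74.6 and 79.6 CPM in M cones of the treated, KO and WT libraries, against 5.25, 5.42 and 5.91 CPM in S cones. Gm44532 stood at 66.6, 68.4 and 80.2 CPM in M cones, against 7.44, 4.51 and 6.47 CPM in S cones. Their log2 differences were 3.65 ± 0.16 and 3.55 ± 0.17 (SE), larger than that of Nr2f2, and those of the other models lay between 3.19 and 3.77. Whether reads of overlapping models were assigned by strand is not given, so Nr2f2 and B130024G19Rik cannot be fully told apart. Gm28258 and Gm44532 lie inside B130024G19Rik on the opposite strand, and the same limit holds for them.

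Smug1 encodes a uracil DNA glycosylase of base excision repair. It stood at 143, 210 and 201 CPM in M cones of the treated, KO and WT libraries, against 52.5, 41.1 and 57.3 CPM in S cones (log2 1.85 ± 0.12 SE, edgeR adjusted p = 8.53e-08). Smug1 reads were in 60.0%, 74.4% and 74.5% of M cones, against 25.5% to 37.7% of S cones. The gene model next to it on chromosome 15, D930007P13Rik, was higher in M cones too, with a log2 difference of 2.66 ± 0.42 (SE).

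Other genes higher in M cones were expressed at lower levels. They included the nicotinic acetylcholine receptor subunit genes Chrna3 and Chrnb4, the muscle transcriptional coactivator gene Myocd, the retinaldehyde dehydrogenase gene Aldh1a1, known from the dorsal mouse retina, the integrin gene Itga6, and Tex28. Chrnb4 stood at 49.5, 44.3 and 22.1 CPM in M cones of the treated, KO and WT libraries, against 19.5, 11.6 and 11.1 CPM in S cones, so the treated and KO M cones were the highest. Myocd stood at 9.82, 8.13 and 11.3 CPM in M cones, against 2.63, 1.5 and 1.13 CPM in S cones. Aldh1a1 came from few cells: reads were in 4.06%, 4.47% and 2.98% of M cones, and the 5 highest M cones held 62.8% to 83.8% of its reads. Likewise the 5 highest M cones held 65.1%, 55.6% and 51.5% of the reads of the kinase gene Alpk2 in the treated, KO and WT libraries, and 74.8%, 71.2% and 85.5% of those of the growth factor gene Ptn.

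Genes lower in M cones were led by the homeobox gene En2, at 0.246, 0.280 and 0.817 CPM in M cones of the treated, KO and WT libraries, against 3.72, 20.8 and 12.1 CPM in S cones (log2 -4.42 ± 0.47 SE). En2 was close to absent from M cones, with reads in 0.214% to 0.851% of them. Vax2, which patterns the ventral mouse retina, stood at 6.39, 16.3 and 4.22 CPM in M cones, against 26.3, 57.3 and 37.3 CPM in S cones. Its antisense partner Vax2os fell as well (log2 -1.85 ± 0.17 SE), and without known strand assignment the pair cannot be told apart. Syndig1l, a relative of a synapse differentiation gene, stood at 58.3, 23.0 and 32.8 CPM in M cones, against 254, 188 and 175 CPM in S cones, with no overlap between classes (log2 -2.46 ± 0.12 SE). Socs3, an inhibitor of cytokine signalling, stood at 8.96, 23.0 and 13.3 CPM in M cones, against 74.2, 49.3 and 37.0 CPM in S cones. Also lower were the synaptic adhesion gene Lrrc4, the ephrin receptor gene Epha8, the axonemal dynein gene Dnaic1, the RNA-binding protein gene Ralyl, the mast cell protease relative Tpsg1, the class I histocompatibility gene H2-Q6, Cdcp3, and Lhx1. H2-Q6 belongs to a multigene family whose reads can be split between copies.

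Calu and Ccdc136 sit beside Opn1sw and followed it. Calu, which encodes an endoplasmic reticulum calcium-binding protein, lies on the plus strand of chromosome 6 at 29348069 to 29377110 and overlaps Opn1sw, which lies on the minus strand from 29376671 to 29388468 (GRCm38, GENCODE). It stood at 36.8, 42.9 and 54.1 CPM in M cones of the treated, KO and WT libraries, against 527, 754 and 716 CPM in S cones. Ccdc136, on the plus strand from 29396309, stood at 128, 134 and 134 CPM in M cones, against 768, 1034 and 925 CPM in S cones. Tex28 lies on the minus strand of the X chromosome from 74150944, just past the end of Opn1mw at 74150760, and the pseudogene Gm6758 lies inside Opn1mw. Both were higher in M cones (log2 1.28 ± 0.27 and 1.13 ± 0.18 SE). Reads of an opsin and of its overlapping or adjoining genes were not separated here, so these genes are uncertain as markers of their own.

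**Figure D2:**
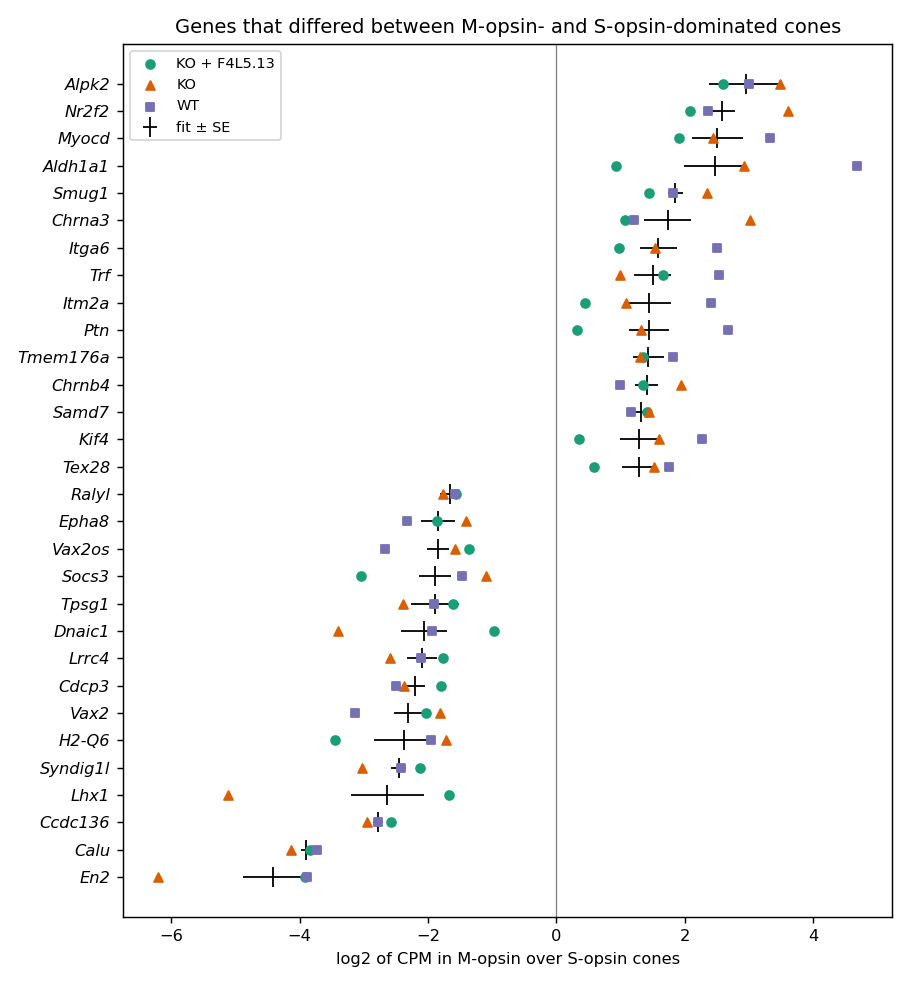
Log2 of CPM in M cones over S cones for the 15 highest and 15 lowest named genes that passed the test, a point for each of the treated, KO and WT libraries and a tick with a bar for the fitted value ± SE. Points lie on the same side of 0 for every gene; Lhx1 had no reads in WT M cones and has no WT point.

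The named genes were not equally firm, as the plot of M over S values by library shows in their spread. Of the 30 named genes, 13 stayed past the threshold in every alternative that kept the library block: Nr2f2, Smug1, Samd7, Chrnb4, En2, Calu, Ccdc136, Syndig1l, Vax2, Cdcp3, Lrrc4, Epha8 and Ralyl. Without the KO library 10 genes lost the call (Aldh1a1, Alpk2, Chrna3, Dnaic1, Itm2a, Kif4, Lhx1, Ptn, Tex28 and Tpsg1, edgeR adjusted p from 0.0718 to 0.357). Without the WT library 14 did, these 10 and H2-Q6, Itga6, Myocd and Trf (0.0874 to 0.745), and without the treated library H2-Q6 did (0.0567). Over all genes, 40 were higher and 45 lower without the KO library, 40 and 40 without the WT library, and 166 and 107 without the treated library.

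Among 26 tested regulators of cone fate and opsin choice, Thrb, Nr2f2 and Samd7 rose in M cones, Rxrg fell, and the other 22 did not pass the test, beside 1.25% called among all genes in either direction. The list's median log2 difference was 0.02, against 0.000485 over all genes. Samd7, a Polycomb-associated repressor of nonrod genes in mouse photoreceptors, stood at 115, 126 and 99.3 CPM in M cones of the treated, KO and WT libraries, against 43.5, 46.0 and 44.2 CPM in S cones (log2 1.32 ± 0.10 SE, edgeR adjusted p = 5.39e-07). Thrb, the receptor gene needed for Opn1mw in mice, stood at 693, 626 and 635 CPM in M cones, against 562, 460 and 504 CPM in S cones (log2 0.34 ± 0.06 SE). The difference was small beside that of Nr2f2, but every M cone sum exceeded every S cone sum. Rxrg, the partner of thyroid hormone receptors that keeps Opn1sw low in mouse M cones, stood at 46.8, 50.2 and 58.1 CPM in M cones, against 74.0, 71.9 and 70.8 CPM in S cones (log2 -0.50 ± 0.11 SE). Thrb lost the call without the KO library (adjusted p = 0.141) and Rxrg without any of the 3 libraries in turn (highest adjusted p over its alternatives 0.303).

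Values of general photoreceptor factors lay close together in both classes. The homeobox gene Crx stood at 688, 690 and 630 CPM in M cones of the treated, KO and WT libraries, against 684, 642 and 629 CPM in S cones. Rorb, an orphan nuclear receptor gene that activates Opn1sw in mice, stood at 432, 432 and 436 CPM in M cones, against 429, 427 and 484 CPM in S cones. Of 12 tested genes that carry, activate or sense thyroid hormone, Thrb was the member that passed the test, beside 0.679% of all genes called higher. Thra, the other thyroid hormone receptor gene, stood at 103, 137 and 92.9 CPM in M cones, against 105, 125 and 77.7 CPM in S cones.

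In the cascade that turns light into a current, 3 of 14 tested genes outside the rule fell in M cones and none rose, beside 0.569% of all genes called lower. The median log2 difference over these 14 genes was -0.11. These were the guanylate cyclase activator genes Guca1a and Guca1b, which restore cGMP after light, and the opsin kinase gene Grk1. Guca1a stood at 4266, 3612 and 4268 CPM in M cones of the treated, KO and WT libraries, against 5917, 5660 and 5710 CPM in S cones (log2 -0.53 ± 0.05 SE, edgeR adjusted p = 1.09e-05). Guca1b stood at 625, 398 and 551 CPM in M cones, against 720, 509 and 759 CPM in S cones (log2 -0.36 ± 0.06 SE). Grk1 stood at 339, 293 and 296 CPM in M cones, against 423, 347 and 378 CPM in S cones (log2 -0.32 ± 0.06 SE). Guca1b and Grk1 lost the call without the KO or the WT library (adjusted p up to 0.252 and 0.872 over their alternatives). All 3 lost it where each cone needed 10 times more of 1 opsin than of the other (0.0655 for Guca1a).

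Rod arrestin, Sag, which mouse cones also make, fell in M cones: it stood at 5153, 3551 and 6688 CPM in M cones of the treated, KO and WT libraries, against 6553, 5610 and 9030 CPM in S cones (log2 -0.50 ± 0.06 SE, edgeR adjusted p = 8.03e-05). It was the member that passed among 16 rod markers, beside 0.569% of all genes called lower, with a list median of -0.14. Cabp5, a calcium-binding protein gene of bipolar cells, fell too, at 89.1, 77.6 and 111 CPM in M cones, against 177, 135 and 182 CPM in S cones (log2 -0.85 ± 0.08 SE). Sag and Cabp5 kept the call in all 10 alternatives with the library block. Of the 14 bipolar markers tested, Car8, a carbonic anhydrase relative, rose (log2 0.64 ± 0.15 SE) and the other 12 did not pass. Over all genes, 0.679% were called higher and 0.569% lower. Car8 kept the call in 4 of those 10 alternatives (highest adjusted p 0.971).

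In the other lists at most 2 genes passed, beside 0.679% of all genes called higher and 0.569% called lower. In the synapse list, 2 of 28 genes passed, both lower in M cones: Elfn2, a postsynaptic-type adhesion gene, at 21.6, 18.8 and 22.6 CPM in M cones of the treated, KO and WT libraries, against 49.2, 62.1 and 34.7 CPM in S cones, and the vesicle priming gene Unc13b (log2 -0.35 ± 0.07 SE). Unc13b lost the call without the KO or the WT library (adjusted p up to 0.464), and Elfn2 kept it in all 10 alternatives. Of 24 glycolysis genes, Ldhb, a lactate dehydrogenase subunit, rose in M cones, at 179, 202 and 177 CPM, against 133, 123 and 116 CPM in S cones (log2 0.57 ± 0.08 SE), and kept the call in all 10 alternatives. Of 23 outer segment and cilium genes, the disc cadherin gene Cdhr1 rose (log2 0.28 ± 0.06 SE), but not without the KO library (adjusted p = 0.432). Among 15 tested interferon response genes, H2-D1 (log2 0.77 ± 0.14 SE) and Ifitm3 (log2 1.14 ± 0.25 SE) rose, and both lost the call without the KO library (highest adjusted p over the alternatives 0.860 and 0.779). The lists for the visual cycle, nuclear oxidative phosphorylation, hypoxia, immediate early genes, the clock, lipid synthesis and Norrin or Wnt signalling had no gene past the threshold of edgeR's test.

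Markers of other cells moved with the class in places. Of 6 tested horizontal cell markers, Lhx1 and Calb1 were called lower in M cones, beside 0.569% of all genes. Calb1 stood at 44.2, 6.45 and 3.68 CPM in treated, KO and WT M cones, against 76.1, 77.5 and 4.64 CPM in S cones. Its difference was small in WT. Calb1 kept the call in 4 of 10 alternatives and lost it without the KO or the WT library. Lhx1 also lost it without either library. Lhx1 reads came from at most 2.05% of the cones of a class. The haemoglobin gene Hbb-bs was called higher in M cones (1495, 0.280 and 1355 CPM, against 2.19, 0.451 and 7.74 CPM in S cones), but in the KO library it was lower. In the treated library 1 M cone held 22528 of the 22553 haemoglobin reads of all M cones, and in the WT library 1 held 19097 of 19148.

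Within M cones, few genes differed. Mixed M cones, with Opn1sw at 10% or more of both opsins, were compared with the other M cones by the same blocked test (n = 3 pairs). Of 11702 genes tested, 6 were higher in mixed M cones (0.0513%) and 3 lower (0.0256%), or 0.0769% in all. The opsins that split the classes were among them. An unadjusted p under 0.05 in edgeR's test was reached by 503 genes, no more than would reach it without any difference. Syndig1l, Ccdc136 and Calu, all lower in M than in S cones, were higher in the mixed than in the other M cones. Calu and Ccdc136 sit beside Opn1sw, whose reads made the split, so their rise is not separate from it. Syndig1l stood at 191, 72.9 and 96.5 CPM in mixed M cones of the treated, KO and WT libraries, against 30.1, 14.2 and 15.0 CPM in the other M cones (log2 2.61 ± 0.18 SE, edgeR adjusted p = 3.16e-06). Kcne2, which encodes a potassium channel subunit, stood at 884, 538 and 691 CPM in mixed M cones, against 530, 347 and 490 CPM in the other M cones (log2 0.63 ± 0.08 SE). Kcne2 was also lower in M than in S cones, at 592, 376 and 534 CPM in M cones, against 886, 590 and 834 CPM in S cones (log2 -0.64 ± 0.06 SE).

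Pmvk, phosphomevalonate kinase of isoprenoid synthesis, went the other way. It stood at 64.5, 131 and 47.3 CPM in mixed M cones of the treated, KO and WT libraries, against 106, 258 and 93.6 CPM in the other M cones (log2 -0.88 ± 0.14 SE, edgeR adjusted p = 0.0293). Syndig1l, Ccdc136 and Calu kept the call in all 7 alternatives, each of which also split M cones by Opn1sw reads. Kcne2 lost it without the treated library (adjusted p = 0.233), and Pmvk lost it without any of the 3 libraries in turn (highest adjusted p over its alternatives 0.570). The pericyte marker Rgs5 was called higher and Hbb-bs lower in mixed M cones; Rgs5 did not go the same way in all libraries, and Hbb-bs again rested on single barcodes. None of the 14 tested phototransduction genes outside the rule and none of 25 tested regulators passed this test.

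Between the groups, a gene is called past the fold where its CPM over M cones differed at least 2-fold, with a 95% counting interval beyond 1.5-fold and no fewer than 30 molecule equivalents where it was higher. Reads are not molecules, and a molecule equivalent is about 3 reads (3.37, 3.07 and 3.10 in the treated, KO and WT libraries). For KO over WT, 91 of 8159 measured genes were higher (1.12%) and 47 lower (0.576%), or 1.69% in all. For treated over KO, 35 of 8294 were higher (0.422%) and 92 lower (1.11%), or 1.53% in all, and for treated over WT, 21 of 8608 were higher (0.244%) and 60 lower (0.697%), or 0.941% in all. Every pair of these comparisons shares a library, so their values are not independent. Without the deepest 5% of M cones the numbers were 62 higher and 17 lower for KO over WT, 24 and 52 for treated over KO, and 18 and 17 for treated over WT. With TMM scaling, which moved the median log2 ratio of all genes from 0.07 to -0.08 for KO over WT and from -0.04 to 0.10 for treated over KO, the numbers were 67 higher and 65 lower for KO over WT and 62 higher and 72 lower for treated over KO.

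RNA of other cells differed between these M cone sums. Endothelial markers summed to 23.1, 67.8 and 282 CPM in treated, KO and WT M cones, with all 12 detected in WT, 5 WT cells holding 87.2% of the WT reads, and Cdh5, Tie1, Tek and Emcn at 0 in both treated and KO M cones. Microglia markers summed to 17.4, 64.8 and 14.6 CPM, with all 10 detected in KO and Cx3cr1, P2ry12, C1qa, Tmem119, Aif1 and Ctss at 0 in treated and WT M cones. Müller glia markers summed to 1197, 2080 and 1338 CPM, amacrine markers to 62.1, 291 and 28.6 CPM, and rod markers to 28451, 21760 and 30114 CPM. Their part in the results was not tested, and values in barcodes that are not cones stand beside the genes they touch. These barcodes differed in make-up: rods by marker reads were 3941 of 8185 in treated, 4664 of 9552 in KO and 283 of 5127 in WT. Ratios between libraries in these barcodes therefore mix cell make-up with level, and the part of each was not tested.

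No cone phototransduction gene was past the fold between any pair of libraries, with 22 of 23 list members measured, 9 of them genes of the rule. Over the 13 measured members outside the rule, the median log2 ratio was -0.17 for KO over WT (0.07 over all genes), 0.21 for treated over KO (-0.04) and -0.00066 for treated over WT (0.04). The largest member, the phosphodiesterase inhibitory subunit gene Pde6h, also of the rule, stood at 10753 CPM in treated, 11010 in KO and 12792 in WT M cones. Cone arrestin, Arr3, a gene of the rule, was lowest in the treated library, where it came to 1140 CPM (95% interval 1098 to 1184). KO M cones held 1323 CPM of it (1258 to 1391), and WT M cones 2029 CPM (1972 to 2088). Guca1b, by contrast, was lowest in KO M cones: its level was 625 CPM (594 to 658) in treated M cones, 398 CPM (363 to 436) in KO M cones and 551 CPM (522 to 582) in WT M cones. Phosducin, Pdc, was likewise lowest in KO, with 2858 CPM in treated, 2278 CPM in KO and 3523 CPM in WT M cones. Rod markers were lowest in KO M cones too, at 28451, 21760 and 30114 CPM in treated, KO and WT. The part of rod RNA in the levels of Guca1b and Pdc was not tested.

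**Figure D3:**
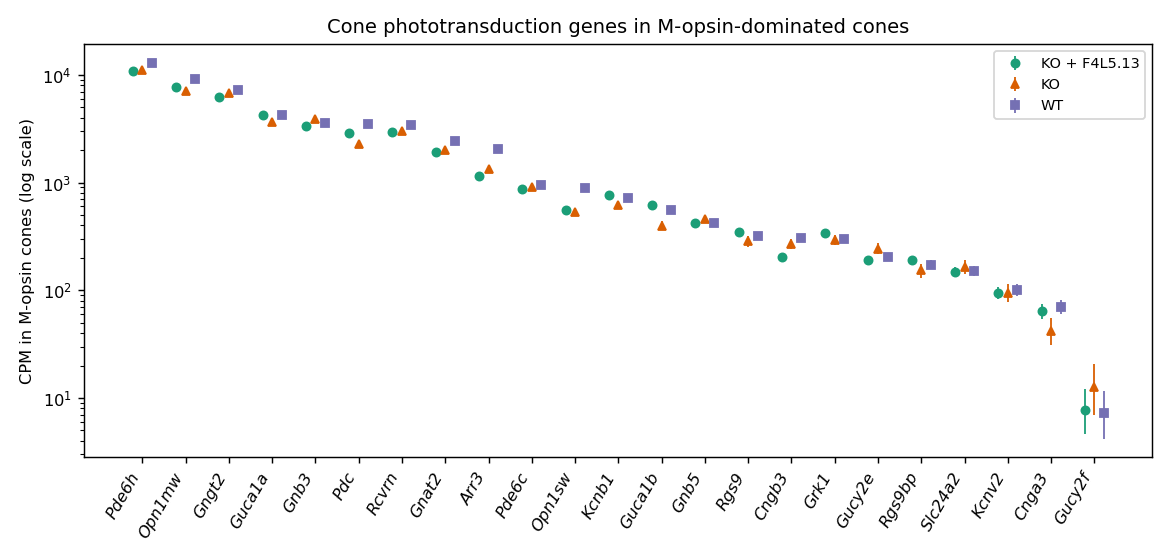
CPM (log scale) of the 23 cone phototransduction genes in M cones of the treated, KO and WT libraries, with exact Poisson 95% intervals on molecule equivalents. No gene differs 2-fold between libraries; levels run from Pde6h at 10753 to 12792 CPM down to Gucy2f at 7.22 to 12.6 CPM, and Arr3 spans 1140 to 2029 CPM.

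The opsin regulators gave no large ratio either. None of the measured regulators (24 of 27 for KO over WT, 25 for the other comparisons) was past the fold. Thrb stood at 693 CPM in treated, 626 in KO and 635 in WT M cones, and Nr2f2 at 55.7, 51.3 and 53.5 CPM with overlapping intervals. Likewise no gene of the lists for outer segment and cilium, photoreceptor synapse, visual cycle, nuclear oxidative phosphorylation or lipid synthesis was past the fold in any comparison.

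Some genes of injury and stress were higher in KO M cones. Of 19 measured genes of the photoreceptor injury and stress list, 5 were past the fold upward for KO over WT (1.12% of all measured genes) and none downward, with a median log2 ratio of 0.19, against 0.07 over all genes. They were the survival factor gene Fgf2, which injured mouse photoreceptors are known to make, the cytokine signalling gene Stat3, the acute-phase transcription factor gene Cebpd, and the metal-binding metallothionein genes Mt1 and Mt2. Fgf2 stood at 27.8 CPM in KO and 2.86 CPM in WT M cones, a ratio of 9.71 (95% counting interval 4.17 to 26.5), with reads in 13.4% of KO and 2.55% of WT M cones. Its KO over WT ratio was 2.28 in S cones and 2.26 in barcodes that are not cones. Stat3 stood at 117 CPM in KO and 45.3 CPM in WT M cones, and Cebpd at 69.0 CPM in KO and 28.2 CPM in WT M cones. Mt1 stood at 819 CPM in KO and 104 CPM in WT M cones, and Mt2 at 183 CPM in KO and 12.7 CPM in WT M cones (ratio 14.5, interval 9.85 to 22). Levels in barcodes that are not cones were higher still, at 3759 and 1094 CPM of Mt1 and 718 and 693 CPM of Cebpd in the KO and WT libraries.

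For treated over KO, 4 of 20 measured list members were past the fold downward (1.11% of all measured genes), Fgf2, Cebpd, Mt1 and Mt2. The list's median log2 ratio was -0.42 (-0.04 over all genes), and -0.20 without rod-marked barcodes or -0.13 with at least 100 molecule equivalents. Stat3 was not past the fold, at 66.1 CPM in treated and 117 CPM in KO M cones. Fgf2 stood at 5.4 CPM in treated and 27.8 CPM in KO M cones, Cebpd at 17.2 CPM in treated and 69.0 CPM in KO M cones, and Mt2 at 23.1 CPM in treated and 183 CPM in KO M cones.

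Hypoxia and glycolysis genes gave a few large ratios. Ndufa4l2, a mitochondrial protein gene induced by low oxygen, stood at 65.3 CPM in KO and 8.99 CPM in WT M cones, and Cox4i2, an isoform of a cytochrome oxidase subunit, at 60.8 CPM in KO and 20.0 CPM in WT M cones; they were the 2 of 17 measured hypoxia genes past the fold upward, beside 1.12% of all measured genes. For treated over KO both were past the fold downward, Ndufa4l2 at 1.96 CPM in treated and 65.3 CPM in KO M cones, and Cox4i2 at 16.8 CPM in treated and 60.8 CPM in KO M cones. Both were far more abundant outside cones, with Ndufa4l2 at 564 CPM in KO and 74.2 CPM in WT barcodes that are not cones. Of 22 measured glycolysis genes, 3 were past the fold downward for treated over KO, beside 1.11% of all measured genes: the phosphofructokinase gene Pfkl, at 63.7 CPM in treated and 144 CPM in KO M cones, the phosphoglycerate kinase gene Pgk1, at 25 CPM in treated and 60.5 CPM in KO M cones, and the monocarboxylate transporter gene Slc16a3. Pfkl and Pgk1 had about the same ratio in S cones (0.498 and 0.425) and in other barcodes (0.501 and 0.406) as in M cones (0.444 and 0.414). The other monocarboxylate transporter gene, Slc16a1, was higher in treated M cones, at 175 CPM, against 86.1 CPM in KO M cones. Slc16a3 also differed between KO and WT M cones, at 45.1 CPM and 16.9 CPM.

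**Figure D4:**
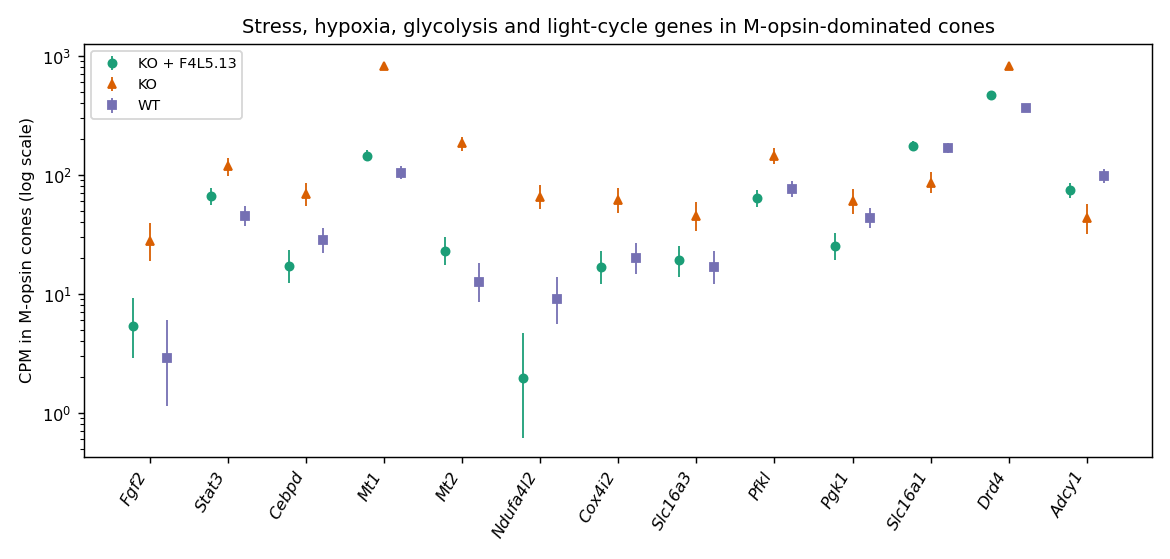
CPM (log scale) in M cones of the treated, KO and WT libraries for injury, hypoxia, glycolysis and light-cycle genes, with exact Poisson 95% intervals on molecule equivalents. Genes highest in KO M cones included Fgf2, Stat3, Cebpd, Mt1, Mt2, Ndufa4l2, Cox4i2 and Drd4. Those lowest in KO M cones included Slc16a1, at 86.1 CPM, and Adcy1, at 43.2 CPM.

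By size of ratio, list members included, the genes named for KO over WT were Fgf2, Pgbd1, Pde10a, Lgr5, Irf7, Ypel4, Hcrtr1, Nefh, Ptprn and Pmvk among the higher and Axin1, Gsc2, Hpcal1, Rnf5, Pik3ap1, Adcy1, Rab27b and Mgst3 among the lower. Pde10a, a phosphodiesterase gene of cyclic nucleotide breakdown, stood at 64.5 CPM in KO and 15.9 CPM in WT M cones, with a ratio of 3.80 in S cones and 1.39 in barcodes that are not cones. Lgr5, an R-spondin receptor gene, stood at 84.4 CPM in KO and 21.0 CPM in WT M cones, in 36.2% and 12.3% of cells. Its ratio was 4.02 in M cones, 2.20 in S cones and 1.94 in barcodes that are not cones. Hcrtr1, the orexin receptor 1 gene, stood at 37.8 CPM in KO and 10.1 CPM in WT M cones, and was nearly absent outside cones, at 1.45 CPM and 0.545 CPM. Ptprn, a dense-core vesicle protein gene, and Pmvk were the most abundant, at 213 and 239 CPM in KO M cones, against 69.4 and 83.5 CPM in WT M cones. The ratio of Ptprn was 3.07 in M cones, 3.35 in S cones and 4.22 in barcodes that are not cones. That of Pmvk was 2.86, 2.29 and 1.92 in the same order. Irf7, an interferon regulatory factor, had a ratio of 3.93 in M cones, 5.02 in S cones and 1.19 in other barcodes.

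Among the genes lower in KO M cones, Mgst3, a microsomal glutathione transferase gene, was the most abundant, at 143 CPM in KO and 299.7 CPM in WT M cones (ratio 0.476, 95% counting interval 0.400 to 0.565). Adcy1, an adenylyl cyclase gene of the photoreceptor cAMP rhythm, stood at 43.2 CPM in KO and 98.2 CPM in WT M cones, a ratio of 0.440, beside 0.546 in S cones and 1.62 in other barcodes. Drd4, the dopamine receptor gene coupled to this cyclase in mouse photoreceptors, was higher, at 820 CPM in KO and 365 CPM in WT M cones. It was also higher in barcodes that are not cones (307 and 120 CPM), whose rod content differed as given above. Of 13 measured genes of the circadian and light-cycle list, 1 was past the fold upward (Drd4) and 1 downward (Adcy1). Of all measured genes, 1.12% were higher and 0.576% lower. The list's median log2 ratio was -0.05, against 0.07 over all genes. The calcium sensor gene Hpcal1 stood at 21.0 CPM in KO and 67.5 CPM in WT M cones, and the secretory Rab gene Rab27b at 35.3 CPM in KO and 78.0 CPM in WT M cones. Axin1, a scaffold of β-catenin destruction, rested on few reads, with 2.52 CPM in KO and 15.8 CPM in WT M cones, and its ratio was 1.27 in S cones. The thyroid hormone transporter gene Slco1c1, which brain and retinal endothelium makes, had no reads in KO M cones and 12.9 CPM in WT M cones, and Slc7a5, another carrier made by endothelium, stood at 1.96 CPM in KO and 20.8 CPM in WT M cones, both beside the endothelial marker values above.

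**Figure D5:**
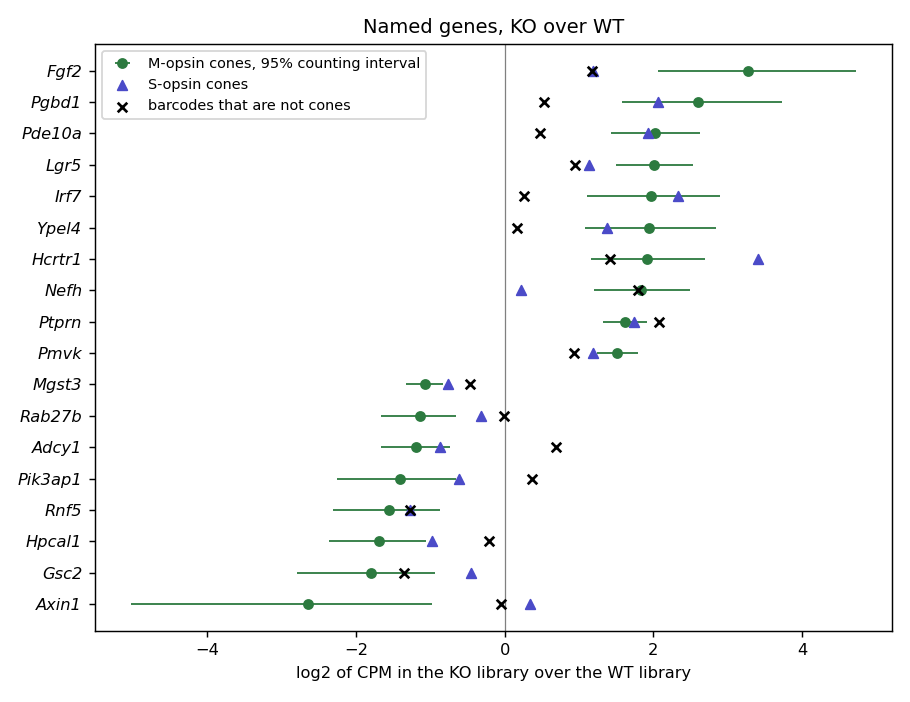
Log2 of CPM in the KO library over the WT library for the 18 genes named in this comparison, in M cones (circles, with exact 95% counting intervals), S cones (triangles) and barcodes that are not cones (crosses). For the 10 higher genes S cones lie on the same side of 0 as M cones, and Axin1 in S cones lies on the other side.

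In the comparison of treated with KO M cones, the lower genes repeated many of the above, since both comparisons hold the KO library: Irf7, Fgf2, Pde10a, Pgbd1, Lgr5, Ypel4, Hcrtr1 and Pmvk, with Mtmr4 and Cd37. Pde10a stood at 13.3 CPM in treated and 64.5 CPM in KO M cones, and Lgr5 at 23.8 CPM in treated and 84.4 CPM in KO M cones, so both treated values were near the WT values of 15.9 and 21.0 CPM. The higher genes were Abcc8, Akr1b8, Espl1, Gdf15, Hpcal1, Zfp592, Rab11fip5, Clba1, Syndig1l and Snhg6. Gdf15, a stress-induced cytokine gene, stood at 32.9 CPM in treated and 7.85 CPM in KO M cones, with a ratio of 3.79 in S cones and 3.08 in other barcodes. Hpcal1 stood at 79.9 CPM in treated and 21.0 CPM in KO M cones, and Rab11fip5, a recycling endosome gene, at 68.0 CPM in treated and 21.3 CPM in KO M cones. Syndig1l, a gene that was higher in S cones and in mixed M cones, stood at 58.3 CPM in treated and 23.0 CPM in KO M cones. Of 11 measured immediate early genes, Fos, Fosb and Egr1, which neurons induce with activity or dissociation, were past the fold upward in treated M cones, beside 0.422% of all measured genes, with Fos at 681 CPM, against 277 CPM in KO M cones.

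Treated M cones differed from WT M cones in the fewest genes by this rule. The named higher genes were Ckap2, Mc1r, Ctdp1, Pqlc2 and Chrnb4, and the named lower genes included Cdk5rap1, Cnksr1 and Arhgdib. Chrnb4, higher in M than in S cones, stood at 49.5 CPM in treated and 22.1 CPM in WT M cones. Ckap2, a spindle protein gene, stood at 13.3 CPM in treated and 2.45 CPM in WT M cones, and the melanocortin receptor gene Mc1r at 17.2 CPM in treated and 4.77 CPM in WT M cones. Arhgdib, a small GTPase inhibitor gene, stood at 50.7 CPM in treated and 110 CPM in WT M cones, with reads in 29.7% and 50.9% of them. Of 13 measured immediate early genes, 1 was past the fold downward, the transcription factor gene Klf4, at 3.68 CPM in treated and 21.4 CPM in WT M cones. Of 4 measured interferon response genes, 1 was past it downward (Ifitm3, at 5.77 CPM in treated and 40.3 CPM in WT M cones) and 1 upward (H2-D1). Of all measured genes, 0.697% were lower and 0.244% higher. Klf4 and Ifitm3 were more abundant in barcodes that are not cones. Endothelial markers were also higher in WT M cones, as given above, and their part in these 2 genes was not tested. H2-D1, from a multigene family, was at 171 CPM in treated and 84.6 CPM in WT M cones, and KO M cones also held 171 CPM of it, and in S cones its ratio was 1.07 for treated over WT and 1.03 for KO over WT.

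Of 20 genes of the Norrin and Wnt list, 5 or 6 reached the minimum for a comparison in M cones. The Norrin receptor gene Fzd4 stood at 4.05, 6.17 and 9.80 CPM in treated, KO and WT M cones, and its coreceptor gene Lrp5 at 0.368, 0.841 and 2.59 CPM, both too low for one. Lgr5 was past the fold for KO over WT and treated over KO, and Dkk3, a secreted Dickkopf relative also made by Müller glia, for treated over WT, at 15.8 CPM in treated and 35.9 CPM in WT M cones.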

How the data were processed

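Retinal cells of 3 libraries (treated, KO and WT) were profiled with the 10x Genomics 3′ kit v3, per the labels' protocols. The authors deposited estimated counts of reads per gene and barcode for 24071 genes, and the submitters' processing notes name Partek 9.0 and the build mm10. The counting steps, and whether molecular identifiers were collapsed, are not given in the sources used here. Between 2.33% and 2.39% of nonzero values were not whole within 0.001, and all were rounded. Counting intervals divide reads by the dispersion of small values (3.37, 3.07 and 3.10 reads in the treated, KO and WT libraries). This is the sum of squares over the sum of values up to 10, in genes detected in under 5% of barcodes.

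Barcodes with at least 500 genes and at most 20% mitochondrial reads were kept (25237 of 26696). No doublet caller was run, and barcodes with markers of rods (Sag not among them), or of bipolar or amacrine cells, were left out as alternatives. M against S cones, and mixed against other M cones, were compared with edgeR 4.0.16 (quasi-likelihood test, TMM factors, library as a block, R 4.3.3), with DESeq2 1.42.0 as an alternative; adjusted p-values are Benjamini-Hochberg over all genes tested. The same cells' opsin reads made the classes, and the 3 libraries differ in genotype or treatment, so the spread between them is not that of like animals. Comparisons between libraries have no test. Shares have exact binomial 95% intervals. CPM values have exact Poisson and ratios exact conditional binomial 95% intervals, both on molecule equivalents. All of these cover counting error only. Calculations used numpy 2.4.6, scipy 1.17.1 and pandas 2.3.3, and the fits were tested on simulated data.

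Named genes were the 15 highest and 15 lowest (M over S), up to 10 each way (mixed M cones, KO over WT, treated over KO) or 5 each way (treated over WT) among called genes with a name. M over S and mixed genes had to differ the same way in the 3 libraries. Genes between libraries needed reads in at least 10 M cones, at most 50% of reads in 5 cells, and at least the level of barcodes that are not cones. Haemoglobin, ribosomal, mitochondrial and rod marker genes were left out, and listed genes may also be named. The members and lists were chosen with earlier results of these data known. One gene that the rule names is not reported here.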

Additional observations from a re-analysis of the deposited data

Results flagged for a closer look

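Dkk3 went opposite ways in the 2 cone classes for treated over WT. Its ratio was 0.441 in M cones (95% counting interval 0.293 to 0.653), at 15.8 CPM in treated and 35.9 CPM in WT M cones, and 2.83 in S cones, at 32.6 CPM in treated and 11.5 CPM in WT S cones. The difference between the classes was not tested, since each group has 1 library. Reads of Dkk3 were in 8.12% of treated and 8.30% of WT M cones, and its level in barcodes that are not cones was 503 CPM in the treated and 590 CPM in the WT library; the part of RNA from other cells was not tested.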

How the results depend on the processing

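With 1 library a group, animal, preparation and group cannot be told apart, and no paired analysis was possible between libraries because each group has 1 library. Without the library block (the pairing of M and S cones within a library), 8 genes were higher and 10 lower in M cones, and 8 of the 30 named genes kept the call. DESeq2 called 57 higher and 53 lower, and no filter on low counts 196 and 162. Leaving out each library in turn gave 40 to 166 higher and 40 to 107 lower. Cones with 10 times more of 1 opsin gave 55 lower, and leaving out barcodes with rod markers, chosen after seeing the data, 64 higher. Requiring Opn1mw at 3 times Opn1sw moved the M cone share to 58.1% in the treated and 46.0% in the WT library. For mixed M cones, no filter gave 38 higher and 28 lower, leaving out each library 9 to 15 higher and 1 to 6 lower, and leaving out rod-marked barcodes 0 lower in edgeR (433 genes at an unadjusted p under 0.05; DESeq2, on all barcodes, gave 3). Hbb-bs reversed, to a log2 difference of 1.26, with mixed M cones set at 5% of Opn1sw, and rests on single barcodes.

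For KO over WT, 51 genes were higher without barcodes with bipolar or amacrine markers and 23 with at least 100 molecule equivalents. The number lower was 22 without rod-marked barcodes, 20 in M cones with Opn1sw under 10%, 17 without the deepest 5%, 19 without bipolar or amacrine markers, 17 with at least 100 molecule equivalents and 28 with the mean of CPM per cell. For treated over KO, 62 were higher with TMM scaling and 23 without bipolar or amacrine markers, and 52 were lower without the deepest 5%, 46 without bipolar or amacrine markers and 20 with at least 100 molecule equivalents. For treated over WT, 7 were higher with at least 100 molecule equivalents, and 25 were lower without rod-marked barcodes, 22 with Opn1sw under 10%, 17 without the deepest 5%, 32 without bipolar or amacrine markers and 16 with at least 100 molecule equivalents. A higher minimum tests fewer genes and leaving out barcodes uses fewer cells; TMM scaling and the mean per cell use the same ones, and their cause was not tested. No named ratio between libraries changed direction, but 4 genes moved. For KO over WT, Irf7 had a log2 ratio of 3.22 without bipolar or amacrine markers, 2.99 without the deepest 5% and 3.13 with the mean per cell, and, without rod-marked barcodes, Pmvk had 1.23 and Adcy1 -1.83. For treated over KO, Pmvk had -0.95 without rod-marked barcodes and Pde10a -3.23 without bipolar or amacrine markers. Of 45 list medians, 8 moved without the deepest 5% and 7 without rod-marked barcodes; that of the interferon list for treated over WT, -0.14, was 0.35 without rod-marked barcodes.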

Other observations

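Several genes that differed between M and S cones lie next to each other. Of the 182 called genes, 177 had a position in the annotation, and 60 of these fell into 25 groups whose members lie within 250000 bases of the next; these groups were looked for after the values were seen, and no comparison with chance was made. In M cones the nicotinic receptor genes Chrna3 and Chrnb4 on chromosome 9 rose together, as did the membrane protein genes Tmem176a and Tmem176b on chromosome 6 (log2 1.43 ± 0.24 and 0.82 ± 0.15 SE), the genes Itga4, Cerkl and Itprid2 on chromosome 2, and Mpp6, Gsdme and Osbpl3 on chromosome 6. Guca1a and Guca1b on chromosome 17, and Vax2 with Vax2os on chromosome 6, fell together. Tmem176a and Tmem176b, Itga4 and Cerkl, Mpp6 and Gsdme, and Vax2 and Vax2os overlap on opposite strands. Without known strand assignment the reads of each of these pairs cannot be fully told apart. Other neighbours went opposite ways: on chromosome 1 the glutathione transferase gene Mgst3 rose (log2 0.73 ± 0.07 SE) and Rxrg fell, and on chromosome 17 H2-D1 rose and H2-Q6 fell.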
